A study of Mus musculus with 12 samples.

Results

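Spinal cord RNA of Drd2mGFAP cKO mice was compared with that of littermate control mice in experimental autoimmune encephalomyelitis, or EAE, at day 17. The comparison held 6 of the 12 libraries of the series, 3 cKO EAE and 3 control EAE, chosen by their labels alone. All were C57BL/6 mice of 2 to 3 months, and the labels name each library a biological replicate. The cKO mice carried a conditional knockout of Drd2, which encodes a D2-type receptor for dopamine, and their control littermates are labelled wt. Both groups are labelled EAE day 17. The other 6 libraries, from basal mice of both genotypes, serve below only as a scale for levels. The label cKO EAE or control EAE is followed by the replicate number, as in cKO EAE 3.

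EAE is an immune attack on myelin of the central nervous system and a model of multiple sclerosis. T cells that recognise myelin enter the spinal cord and release cytokines such as interferon gamma, monocytes follow, and resident microglia and astrocytes turn on antigen presentation, complement and scar genes. Neurons and oligodendrocytes lie in the tissue under attack. The D2 receptor is a G protein-coupled receptor of neurons that has also been described on astrocytes. Part of the cKO label is GFAP, the gene of an intermediate filament whose promoter is active in astrocytes and in some neural progenitors. RNA came from the cord and not from sorted cells, so that fewer cells of a type and less RNA per cell cannot be told apart here.

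The 6 libraries held 15781928 to 17192851 counts each, with 25183 to 26056 genes detected. All were male RNA (Ddx3y at 70.3 to 77.0 CPM of the library total, counts scaled to a common library size, Xist at 0.292 or less), while the basal libraries were female (Xist at 309 to 796), so that each level set against basal is also one between sexes. Defining markers of neurons, astrocytes, oligodendrocytes and microglia were present in all 6 libraries. The libraries of cKO mice were far less alike than those of controls. On the first principal component of the 17914 tested genes (76.7% of variance) the controls lay at 39.2 to 56.1, and cKO EAE 1, 2 and 3 lay at -22.8, 3.35 and -124. The library cKO EAE 3 stood close to basal mice in many of its inflammatory genes: its interferon gamma genes were on average 0.37 above control basal (log2 of CPM plus 0.5), against 3.83 and 4.06 in cKO EAE 1 and 2 and 5.10 to 6.02 in controls. The comparison was therefore fitted with all 6 libraries and with the 5 libraries left without cKO EAE 3. On the same scale its T cell genes were at 0.0089, against 2.18 and 2.79 in cKO EAE 1 and 2 and 3.65 to 3.96 in controls. Its neutrophil and activated endothelium genes stood further from basal, at 1.23 and 1.40, against 2.49 to 2.61 and 3.20 to 3.97 in controls. Clinical scores of the mice were not used here, so whether disease had developed in the mouse of cKO EAE 3 is not known.

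**Figure D1:**
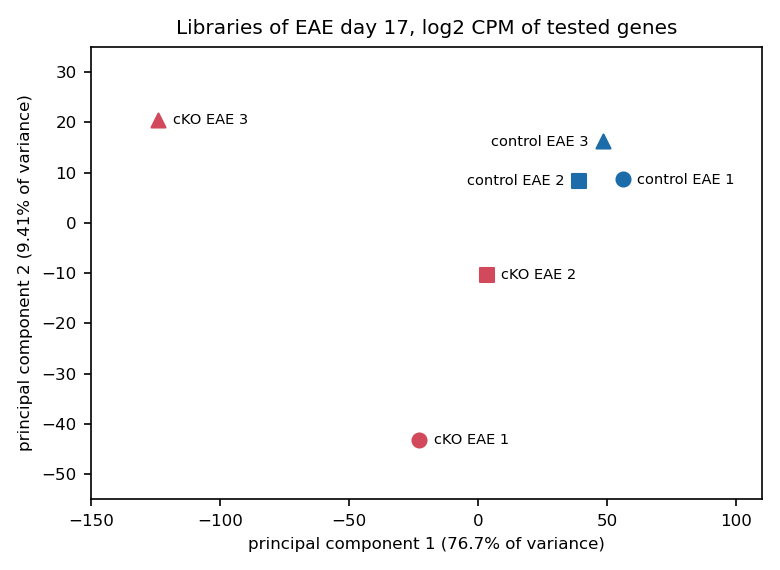
Principal components of the 6 EAE libraries, computed on log2 CPM of the 17914 tested genes. Each point is a library, blue for control and red for cKO, and the axes give the component scores with their share of variance. The controls lie together on the right, cKO EAE 2 at 3.35 and cKO EAE 1 at -22.8 lie between, and cKO EAE 3 lies at -124.

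No fall of Drd2 RNA was detected in cKO cord. The gene (ENSMUSG00000032259) was at 9.0, 9.14 and 9.76 TMM-normalised CPM in control EAE 1, 2 and 3, and at 7.11, 12.8 and 20.2 in cKO EAE 1, 2 and 3. The groups overlapped, with cKO EAE 1 lowest and cKO EAE 3 highest. The log2 fold change, cKO over control, was 0.52 (SE 0.35, adjusted p = 0.318 by edgeR's quasi-likelihood F test, adjusted by Benjamini-Hochberg) and 0.10 (SE 0.24, adjusted p = 0.816) without cKO EAE 3. Cord neurons also express the gene, and the sources used here do not name the deleted part, so the count does not test a deletion in astrocytes.

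Genes of motor neurons, other neurons, myelin and astrocytes were among those called higher in cKO at day 17, and genes of the immune attack among those called lower, most of them only without cKO EAE 3. At an adjusted p below 0.05, 1374 of 17914 genes differed with 6 libraries, 1099 higher (6.13% of genes tested) and 275 lower (1.54%) in cKO. Of these, 197 were at least 2-fold higher and 108 at least 2-fold lower. Without cKO EAE 3 the count was 3336 of 18319, with 1669 higher (9.11%) and 1667 lower (9.1%), and of the 1374 genes 1362 were called again in the same direction, which is 40.8% of the larger set. The balance between higher and lower genes thus moved with that library. In many inflammatory genes given below cKO EAE 3 lay far under the other cKO libraries, and differences that missed the threshold with 6 libraries passed with 5. Non-overlap of the groups was common: 4197 genes (23.4%) had every cKO library above every control and 4397 (24.5%) below, and 4797 (26.2%) and 4959 (27.1%) did with 5 libraries. The median log2 fold change over all tested genes was -0.00019 with 6 libraries and -0.016 with 5. The smallest adjusted p was 0.0440 with 6 libraries and 0.0150 with 5, so the calls with 6 libraries lie close to the threshold. By edgeR no gene was called without cKO EAE 1 (4991 at an unadjusted p below 0.05), nor without control EAE 1, 2 or 3 (4201, 4933 and 4623), so every call with 6 libraries given below rests on each of these libraries, and the count of 3336 with 5 libraries became 22 without cKO EAE 1 and 546 without control EAE 3. Below, a gene is called when its adjusted p is under 0.05, log2 values are cKO over control, and the count with 5 libraries follows that with 6. Each count of called or non-overlapping genes in a list is to be read against the shares of all genes given here.

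Among the lists, the largest median rise in both fits was that of spinal motor neurons, the cholinergic cells of the ventral horn that drive muscle. Of 10 tested motor neuron and acetylcholine genes 8 were called higher and 10 with 5 libraries, none lower, with a median log2 fold change of 1.91 (1.96), against 6.13% and 9.11% of all genes called higher. All 10 had every cKO library above every control (23.4% of all genes did), and their summed level was 264 to 381 CPM in controls and 556 to 913 in cKO. The high-affinity choline transporter Slc5a7 (ENSMUSG00000023945, chromosome 17, 54273590 to 54299034 of mm10, minus strand) was at 21.1, 24.8 and 12 CPM in control EAE 1, 2 and 3 and at 138, 62.4 and 103 in cKO EAE 1, 2 and 3. Its lowest cKO library was thus above the highest control, with the widest gap in cKO EAE 1. The log2 fold change was 2.39 (SE 0.37, adjusted p = 0.0440 by edgeR's quasi-likelihood test). Chodl, a membrane protein of fast motor neurons, was at 12.5, 12 and 4.26 against 54.4, 26.3 and 46.7 CPM, or 2.15 (SE 0.45, adjusted p = 0.0472 by edgeR's quasi-likelihood test).

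Transcription factors of motor neuron identity moved the same way. Isl2 (ENSMUSG00000032318), a LIM homeodomain factor, had the largest rise by the naming rule with 6 libraries. It was at 0.876, 0.902 and 0.355 CPM in controls and 6.26, 2.33 and 3.98 in cKO (2.55, SE 0.49, adjusted p = 0.0440 by edgeR). Its relative Isl1 was at 1.05 to 1.38 and 2.27 to 4.32 CPM (1.41, SE 0.30, adjusted p = 0.0476). Both were separated between groups at low levels, where counting error adds to the spread. Mnx1, the homeobox factor HB9, was at 0.414 to 1.20 and 2.46 to 5.72 CPM, with a log2 fold change of 2.09 (SE 0.49) that was called only with 5 libraries (adjusted p = 0.0509 and 0.0215). The vesicular acetylcholine transporter Slc18a3 lies inside Chat, the gene of choline acetyltransferase, on the same strand, so their counts may share reads. Slc18a3 was at 13.8 to 26.5 CPM in controls and 58.2 to 118 in cKO (1.90, SE 0.35). Acetylcholinesterase Ache (0.63, SE 0.14) and the GDNF receptor Ret (1.05, SE 0.24) were called by less. The neurofilament Prph of peripherally projecting neurons was at 21.9 to 49.9 and 70.3 to 116 CPM and passed only with 5 libraries (adjusted p = 0.0613 and 0.0321).

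Several other genes among the 12 largest rises are ones that motor neurons or ventral interneurons use. Chrna2, the nicotinic receptor subunit alpha 2 known from Renshaw cells, the inhibitory partners of motor neurons, was at 0.759, 0.541 and 0.769 CPM in controls and 5.72, 2.52 and 3.86 in cKO (2.53, SE 0.38, adjusted p = 0.0440). Evx1, a factor of V0 interneurons, was at 0.409 to 0.592 and 1.17 to 2.43 CPM (1.77, SE 0.38), the potassium channel Kcnj14 at 3.67 to 8.29 and 18.9 to 34.9 (1.98, SE 0.36), and Calcb, the beta form of the calcitonin gene-related peptide, at 1.81 to 2.40 and 4.67 to 12 (1.97, SE 0.37). In each of these the cKO order was the same, with cKO EAE 1 highest and cKO EAE 2 lowest. The peptide genes Uts2 and Uts2b, of the urotensin family, were called only with 5 libraries (2.05, SE 0.49, and 2.46, SE 0.61). Uts2 lies within Camta1 on the opposite strand, and the sources used here do not give the strand setting of the counting. The remaining rises were Aqp6, a water channel (0.541 to 1.30 and 2.09 to 5.06 CPM), Gli1, the transcription factor that reads out hedgehog signalling (1.75 to 2.34 and 4.24 to 13.5), and Ptgds, which makes prostaglandin D2.

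**Figure D2:**
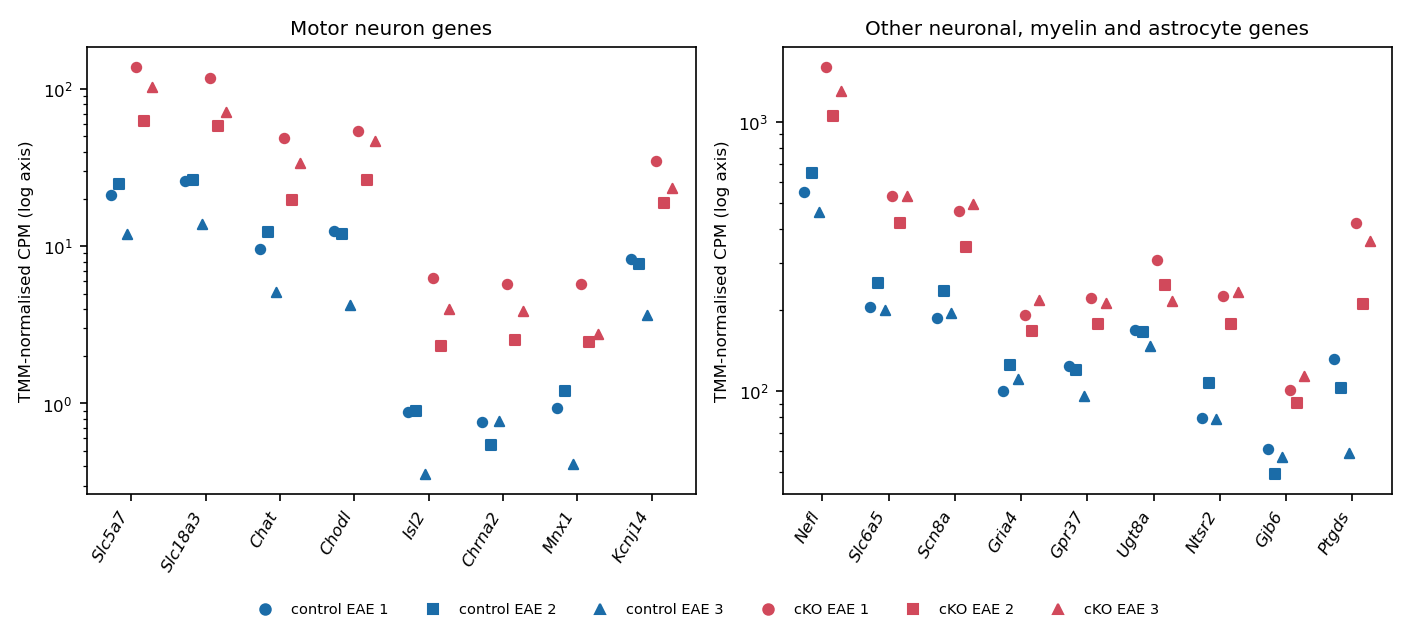
TMM-normalised CPM on a log axis of genes higher in cKO, with control EAE 1 to 3 in blue and cKO EAE 1 to 3 in red. Each symbol is a library. In all genes shown the 3 cKO libraries lie above the 3 controls, Mnx1 included, which was called only with 5 libraries, with Slc5a7 at 12 to 24.8 in controls and 62.4 to 138 in cKO. The genes were named for separated groups or small p, so their separation follows in part from that choice.

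The cKO libraries also differed among themselves in genes of particular parts of the cord, chosen after their values were seen. Of 16 genes of the dorsal horn, which receives sensory input, cKO EAE 1 was the lowest of the 6 libraries in 14. Lmx1b, a factor of excitatory dorsal neurons, was at 14.5, 16.4 and 18.3 CPM in controls and at 1.76, 18.5 and 22.6 in cKO. Tac2, the neurokinin B precursor, was at 15.8, 17.6 and 18.8 and at 1.82, 15.8 and 32.4, and Tlx3 at 3.8, 4.21 and 4.32 and at 0.426, 4.18 and 4.93. The same library, cKO EAE 1, was the highest of all in Slc5a7, Chat, Isl2 and Mnx1. In cKO EAE 2 instead, 6 of 8 tested Hox genes of paralog groups 10 to 13, which are used in the lumbar and sacral cord, were the lowest of the 6 libraries. Hoxc12 was at 3.86, 6.49 and 7.63 CPM in controls and at 3.89, 0 and 7.40 in cKO, and Hoxd11 at 6.31, 11.2 and 8.34 and at 7.72, 1.97 and 11.4. Schwann cells, the myelinating cells of nerve roots, gave a further difference: their gene Prx, of the periaxin scaffold, was at 1.99, 1.80 and 2.54 CPM in controls and at 46.4, 2.27 and 23 in cKO EAE 1, 2 and 3. Of 6 tested Schwann cell genes 3 were called higher with 5 libraries, Prx, Pmp22 and Cdh19, and 1 lower, Egr2, which is also an immediate early gene. By edgeR none was called with 6 libraries (3 higher and 1 lower at an unadjusted p below 0.05, the same by DESeq2 and by voom), and the median was 0.60 (0.65). In cKO EAE 1, 2 and 3 the motor neuron genes summed to 913, 556 and 772 CPM, and Prx had the same order. The dorsal horn genes summed to 242, 350 and 434 and the Hox genes of groups 10 to 13 to 144, 106 and 219, in other orders. Calb2 made up much of the dorsal horn sums and, unlike most of that list, was highest in cKO EAE 1. It was at 96.2, 110 and 72.4 CPM in controls and at 196, 171 and 178 in cKO. The part of these differences in the motor neuron result was not tested.

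**Figure D3:**
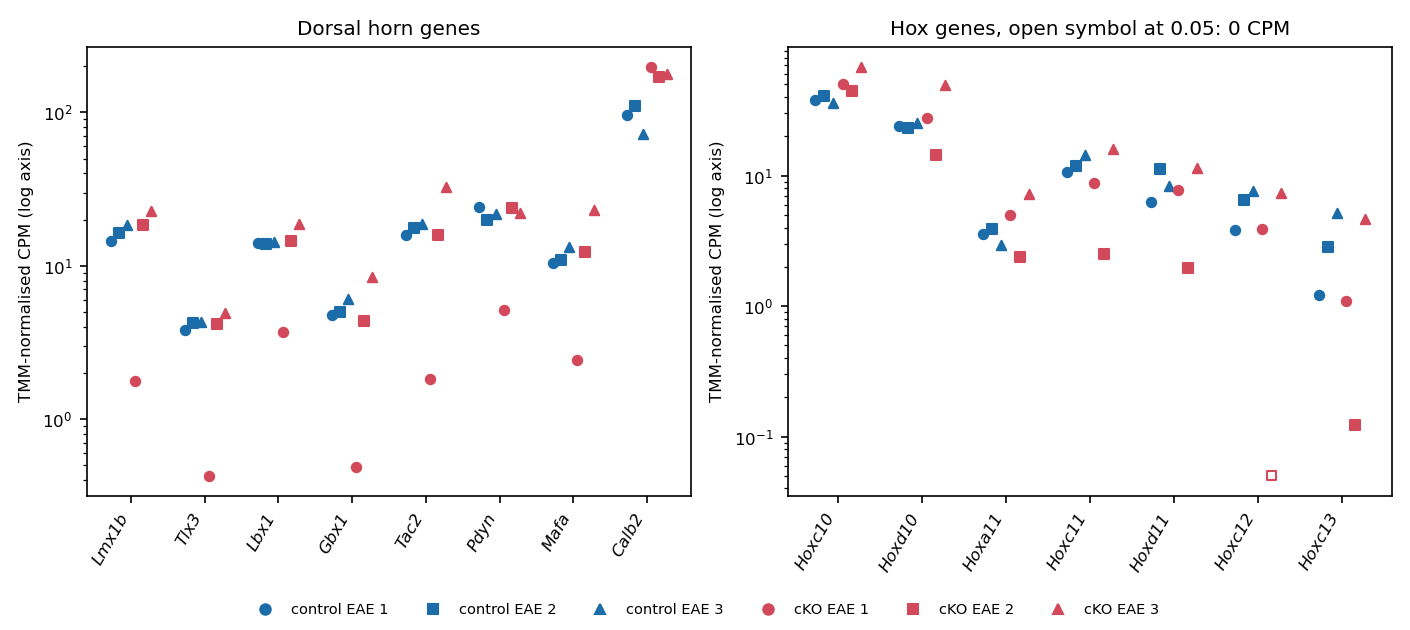
Dorsal horn genes (left) and Hox genes of paralog groups 10 to 13 (right) in the 6 EAE libraries, as TMM-normalised CPM on a log axis. Blue is control, red is cKO, each symbol is a library, and the open symbol marks 0 CPM. In the left panel cKO EAE 1 (red circle) lies below the rest in 7 of the 8 genes shown, all but Calb2, and in the right panel cKO EAE 2 (red square) is lowest in 6 of the 7 genes shown.

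The motor neuron list was also set out without single libraries. Its median was 1.56 without cKO EAE 1, and 1.26 for cKO EAE 2 alone against the 3 controls. In cKO EAE 2 Lmx1b, Tlx3 and Prx lay near the controls, and most Hox genes of groups 10 to 13 were the lowest. These medians do not test the part of such differences in the motor neuron result. Without cKO EAE 1 no gene of the list was called by edgeR, nor any of 18334 genes (4991 at an unadjusted p below 0.05), and cKO EAE 2 alone has no replicate. With DESeq2 size factors in edgeR's fit of 6 libraries 4 of the 10 were called. With 6 libraries 10 were higher at an unadjusted p below 0.05, and DESeq2's own test and voom each called 10 higher. In cKO EAE 2 the list stood on average 0.33 below control basal (log2 of CPM plus 0.5), against 1.06 to 1.87 below in the controls, 0.56 above in cKO EAE 1 and 0.19 above in cKO EAE 3.

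Genes of other neurons were higher in cKO as well, by smaller amounts. In the list of general neuron and synapse genes 8 of 16 were called higher (12 with 5 libraries) and none lower, with a median of 0.68 (0.58). The neurofilament light chain Nefl was at 548, 649 and 464 CPM in control EAE 1, 2 and 3 and at 1598, 1051 and 1310 in cKO EAE 1, 2 and 3 (1.25, SE 0.20, adjusted p = 0.0440 by edgeR's quasi-likelihood test). Snap25, a protein of synaptic vesicle fusion, was at 853 to 1095 and 1635 to 2380 CPM (1.09, SE 0.19). All 3 cKO libraries exceeded all controls in both. Nefl overlaps the neurofilament gene Nefm on the opposite strand, where reads of the pair could not be separated without strand.

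By their list medians, inhibitory and excitatory genes shared that direction. Of 10 GABA and glycine genes 5 were called higher (7 with 5 libraries), median 0.78 (0.62). Slc6a5, the glycine transporter of inhibitory terminals, was at 206, 253 and 200 CPM in controls and 532, 421 and 531 in cKO (1.17, SE 0.14, adjusted p = 0.0440). The glycine receptor subunits Glra1 (1.25, SE 0.21) and Glrb (1.23, SE 0.21) and the vesicular GABA transporter Slc32a1 (0.89, SE 0.13) were called too. Of 12 glutamate genes 5 were called higher in either fit, median 0.52 (0.29), and 2 had a log2 fold change below 0 (4 with 5 libraries). The cKO libraries were not alike in this list. Against control basal (log2 of CPM plus 0.5) it averaged -0.71 in cKO EAE 1, below the controls at -0.63 to -0.52. In cKO EAE 2 and 3 it averaged -0.29 and 0.094. Among those called with 6 libraries were the AMPA receptor subunits Gria3 (0.77, SE 0.13) and Gria4 (0.78, SE 0.13), the NMDA receptor subunit Grin2a (0.83, SE 0.18) and the vesicular transporter Slc17a6 (0.88, SE 0.20). Of 13 voltage-gated channel genes 7 were called higher in each fit, median 0.74 (0.60). Scn8a, the sodium channel of nodes of Ranvier, was at 188 to 235 and 344 to 495 (1.08, SE 0.17). Kcna1 (1.12, SE 0.17) and Kcna2 (1.05, SE 0.18), channels placed beside those nodes, were called as well.

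Neuropeptides and activity genes did not follow the neuronal lists. None of 12 neuropeptide genes was called by edgeR in either fit (1 higher at an unadjusted p below 0.05 with 6 libraries, 0 by DESeq2, 2 lower by voom), with a median of 0.22 that became -0.33 without cKO EAE 3 and 0.55 without cKO EAE 1. Tac1, Tac2, Pdyn, Grp and Nts of this list are also among the dorsal horn genes above. Against control basal (log2 of CPM plus 0.5) the list averaged -1.85, -0.80 and -0.08 in cKO EAE 1, 2 and 3. In controls it averaged -0.96 to -0.84. Penk, the enkephalin precursor of the dorsal horn, was at 96.6, 111 and 83.1 CPM in controls and 65.5, 115 and 172 in cKO, which overlap and are lowest in cKO EAE 1. Calca, the alpha form of the calcitonin gene-related peptide, was at 5.03 to 11.4 and 8.78 to 32.4 CPM (1.28, SE 0.50, adjusted p = 0.124). Immediate early genes, which cells switch on within minutes of a stimulus, lay lower in cKO: of 12, 9 had every cKO library below every control (24.5% of all genes did). By edgeR 1 was called lower with 6 libraries and 5 with 5, median -0.57 (-0.56). Egr3 was at 9.70, 9.86 and 7.99 CPM in controls and 2.01, 4.05 and 4.36 in cKO (-1.40, SE 0.30, adjusted p = 0.0476). In this gene cKO EAE 1 and not cKO EAE 3 was the lowest. Fos was at 25.1 to 40.4 and 9.17 to 16.1 CPM (-1.20, SE 0.28, adjusted p = 0.0501) and Egr1 at 42.2 to 48.6 and 23.3 to 34.1 (-0.67, SE 0.16, adjusted p = 0.0503), and both passed with 5 libraries.

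Of 11 tested genes of dopamine signalling none passed with 6 libraries by edgeR (4 higher and 1 lower at an unadjusted p below 0.05, 2 and 1 by DESeq2, 3 and 0 by voom). With 5 libraries 1 was called higher, a share near the 9.11% of all genes, and the median was 0.28 (0.10). Ppp1r1b, a phosphoprotein controlled by dopamine receptors, was at 20.9 to 31.4 CPM in controls and 38.4 to 49.7 in cKO without overlap (0.74, SE 0.19, adjusted p = 0.0564), and at an adjusted p of 0.0418 with 5 libraries. Drd3, Drd4 and the dopamine transporter Slc6a3 did not pass the filter on low counts.

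Myelin genes were higher in cKO, most clearly without cKO EAE 3. Of 16 genes of myelin and mature oligodendrocytes 3 were called higher with 6 libraries and 13 with 5, none lower, with a median of 0.54 (0.68). Their summed level was 18189, 17864 and 14434 CPM in controls and 28440, 25139 and 20560 in cKO. No cKO library reached down to a control, and cKO EAE 3 was the lowest of the cKO libraries. The part of nerve root myelin in cKO EAE 1 and 3 was not tested, and in cKO EAE 2, with Prx at 2.27 CPM, the list median was 0.56. Ugt8a, the enzyme that makes the myelin lipid galactosylceramide, was at 169, 167 and 148 CPM in controls and 308, 248 and 217 in cKO (0.68, SE 0.14, adjusted p = 0.0473 by edgeR). Gpr37, a receptor of mature oligodendrocytes, was at 96.4 to 124 and 178 to 223 CPM (0.85, SE 0.14), and Aspa, the aspartoacylase of oligodendrocytes, at 34.5 to 44.1 and 59.1 to 75.7 (0.74, SE 0.14). Tspan2 passed only with 5 libraries (0.62, SE 0.12, adjusted p = 0.0183).

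Of 12 genes of oligodendrocyte precursors none was called with 6 libraries (1 higher at an unadjusted p below 0.05, 1 by DESeq2, 1 higher and 1 lower by voom), with a median of 0.09, and 1 with 5 libraries (0.17), a share near the 9.11% of all genes. That gene, Enpp6, marks newly forming oligodendrocytes and was at 24.1 to 36.6 and 39.0 to 54.8 CPM (0.57, SE 0.19, adjusted p = 0.0941, or 0.0310 with 5 libraries). Of 18 cholesterol synthesis genes none was called with 6 libraries (3 higher and 1 lower at an unadjusted p below 0.05, the same by DESeq2, 7 higher by voom) and 3 were called higher with 5. The median was 0.25 (0.36), and 17 of the 18 had a log2 fold change above 0. Among the called genes were Insig1, a sterol sensor (0.61, SE 0.16), and the desaturase Sc5d (0.44, SE 0.12), both as values with 5 libraries.

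Astrocyte genes went in both directions. Of 18 general astrocyte markers 6 were called higher and none lower with 6 libraries, and 7 higher and 1 lower with 5, with a median of 0.41 (0.44). Ntsr2, the neurotensin receptor of astrocytes, was at 79.8, 107 and 79.1 CPM in control EAE 1, 2 and 3 and at 226, 178 and 235 in cKO EAE 1, 2 and 3 (1.26, SE 0.17, adjusted p = 0.0440). Gjb6, the gap junction protein connexin 30, was at 49.2 to 61.3 and 90.2 to 114 CPM (0.87, SE 0.13), Cldn10 at 15.3 to 19.7 and 28.6 to 37.5 (0.93, SE 0.15), and the growth factor receptor Fgfr3 at 128 to 158 and 217 to 287 (0.83, SE 0.14). In all of these the libraries of cKO mice lay above those of controls. The glutamate transporters went apart: Slc1a2 was at 1644 to 1762 and 2471 to 2866 CPM (0.62, SE 0.14, adjusted p = 0.0481), and Slc1a3 at 186 to 230 and 141 to 153 (-0.45, SE 0.10, adjusted p = 0.0501, called lower with 5 libraries).

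Genes of reactive astrocytes were called lower only without cKO EAE 3. None of 13 pan-reactive genes was called with 6 libraries (6 lower at an unadjusted p below 0.05, 2 by DESeq2, 6 by voom), and 8 were called lower with 5, median -1.51 (-1.03). Lcn2, a secreted iron carrier of reactive astrocytes and neutrophils, was at 631, 771 and 751 CPM in controls and 109, 221 and 18.9 in cKO. The 5-library difference was -2.12 (SE 0.28, adjusted p = 0.0150). Gfap itself overlapped, at 4448, 4432 and 5854 CPM in controls and 3959, 4659 and 1067 in cKO (-0.61, SE 0.51, adjusted p = 0.420, and -0.19, SE 0.20, with 5 libraries). The libraries cKO EAE 1 and 3 lay below every control, cKO EAE 3 by far the more, and cKO EAE 2 lay among the controls. The A1 list, named for a neurotoxic state, had 8 of 11 genes called lower with 5 libraries and 1 higher, Fbln5, which was also called with 6 (0.96, SE 0.19). The A2 list had 4 of 12 called lower with 5 libraries and none with 6 (2 lower at an unadjusted p below 0.05, 2 by DESeq2, 3 by voom). Both lists hold genes that immune cells express as well.

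The largest falls called with 6 libraries were low in level and high in fold. By the naming rule they were Asb11, Bdkrb1, Clec1b, S100a4, Guca1a, Htr2b, Ptger2, Tnfsf14, Lta, Fpr1, Trat1 and Has2. Bdkrb1, the bradykinin receptor that appears in inflamed tissue, was at 2.04, 1.32 and 1.12 CPM in control EAE 1, 2 and 3 and at 0.243, 0.246 and 0 in cKO EAE 1, 2 and 3 (-3.13, SE 0.66, adjusted p = 0.0469 by edgeR's quasi-likelihood test). Asb11, a substrate adaptor of ubiquitin ligases, had 60 counts over the controls and 6 over the cKO libraries (-3.18, SE 0.64). In both genes the cKO libraries were alike and near 0. Ptger2, the EP2 receptor of prostaglandin E2, was at 7.77, 4.57 and 5.33 against 1.46, 1.78 and 0.506 CPM (-2.23, SE 0.45), and Fpr1, the formyl peptide receptor of phagocytes, at 10.5, 8.72 and 6.21 against 2.43, 2.46 and 0.822 (-2.15, SE 0.42). The serotonin receptor Htr2b was at 1.77 to 3.19 and 0.443 to 0.553 CPM (-2.27, SE 0.32), and is among the named falls in which cKO EAE 3 did not stand apart from the other cKO libraries. Htr2b overlaps Psmd1, a highly counted gene on the opposite strand. Lymphocyte genes in this set were Lta, the cytokine lymphotoxin alpha (-2.17, SE 0.47), Tnfsf14, the cytokine LIGHT (-2.21, SE 0.47), and Trat1, an adaptor of the T cell receptor (-2.11, SE 0.38). Has2, which makes hyaluronan, was at 3.61 to 4.85 and 0.443 to 1.34 CPM (-2.05, SE 0.39).

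**Figure D4:**
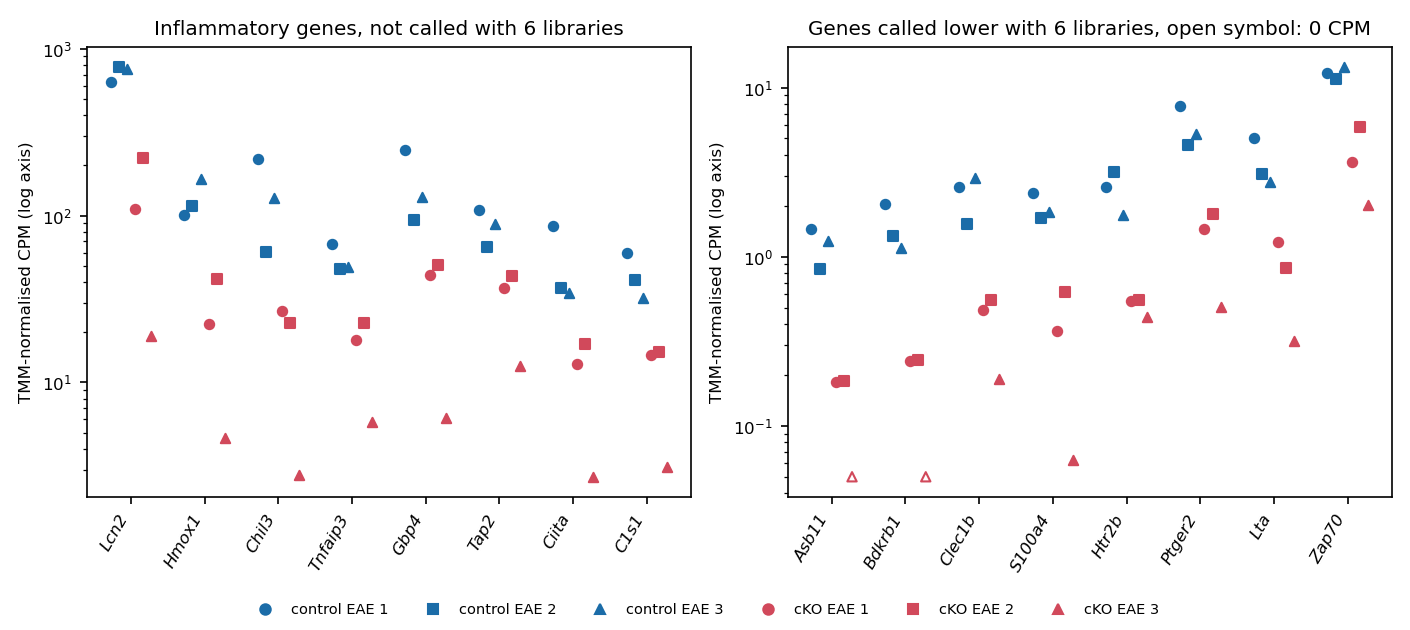
TMM-normalised CPM on a log axis of inflammatory genes not called with 6 libraries (left) and of genes called lower in cKO with 6 libraries (right). Blue is control, red is cKO, each symbol is a library, and open symbols mark 0 CPM. On the left cKO EAE 1 and 2 lie between the controls and cKO EAE 3 (red triangle), as for Lcn2 at 631 to 771, 109 and 221, and 18.9, and on the right Htr2b has the 3 cKO libraries together at 0.443 to 0.553.

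T cell genes were lower in cKO cord. Of 18, 17 had every cKO library below every control (24.5% of all genes did). By edgeR 1 was called lower with 6 libraries (1.54% of all genes were) and 15 with 5 (9.1%), and the median was -1.85 (-1.32). Zap70, the kinase of the T cell receptor, was at 12.2, 11.3 and 13.1 CPM in controls and 3.65, 5.83 and 2.02 in cKO (-1.67, SE 0.35, adjusted p = 0.0474). Trac, the constant part of the receptor's alpha chain, was at 17.4 to 19.7 CPM in controls and 7.24, 10.6 and 2.28 in cKO, with a 5-library difference of -1.08 (SE 0.19, adjusted p = 0.0151). Controls were thus close to each other, and cKO EAE 2 was the nearest to them. Ifng, the interferon gamma gene of T helper 1 and other lymphocytes, was at 1.08 to 1.54 CPM and at 0.365, 0.368 and 0 (-1.83, SE 0.43, adjusted p = 0.0262 with 5 libraries), and Tbx21, the T helper 1 factor, at 2.95 to 3.19 and 0.443 to 1.90 (adjusted p = 0.0906 and 0.0546). Il4 was the gene of the T helper list called higher with 5 libraries, and none of 8 tested was called with 6 (1 higher and 2 lower at an unadjusted p below 0.05, 1 and 3 by DESeq2, 1 and 2 by voom). The 7 tested B and plasma cell genes had a median of 0.06 (-0.05), none was called by edgeR, DESeq2 or voom, and none had an unadjusted p below 0.05.

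Genes of monocytes and macrophages that enter the cord had the lowest median of all lists in both fits. All 14 had every cKO library below every control (24.5% of all genes did). By edgeR 1 was called lower with 6 libraries (1.54% of all genes were) and 14 with 5 (9.1%), and the median was -2.52 (-1.95). Their summed level was 6636, 4389 and 3955 CPM in controls and 1023, 2012 and 133 in cKO. Chil3, a lectin of alternatively activated macrophages, was at 218, 60.5 and 127 CPM and at 26.8, 22.8 and 2.78 (-2.44, SE 0.47, adjusted p = 0.0175 with 5 libraries). S100a4, a calcium-binding protein of motile cells, was at 1.68 to 2.39 and 0.0632 to 0.614 (-2.47, SE 0.55, adjusted p = 0.0482). Activated microglia and macrophage genes had a median of -1.42 (-0.98), with 9 of 16 called lower with 5 libraries and none with 6 (7 at an unadjusted p below 0.05, 3 by DESeq2, 11 by voom). Gpnmb, a glycoprotein of lipid-laden phagocytes, was at 356, 183 and 104 and at 28.6, 67.2 and 2.47 CPM (-2.16, SE 0.54, adjusted p = 0.0304 with 5 libraries).

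In the list of 12 homeostatic microglia genes 7 had every cKO library below every control (24.5% of all genes did), and the median was -1.01 (-0.57). By edgeR none was called with 6 libraries (0 at an unadjusted p below 0.05, 0 by DESeq2), voom called 7 lower, and 1 was called lower with 5 libraries, a share near the 9.1% of all genes. Tmem119, a microglia surface protein, was at 107, 93.8 and 104 CPM in controls and 47.9, 80.0 and 13.9 in cKO, with adjusted p of 0.187 and 0.0501. Here cKO EAE 2 lay close to controls, and its median over the list was -0.23 when taken alone. Neutrophil genes had a median of 0.13 (0.30), which became -0.42 without cKO EAE 1 and -0.15 for cKO EAE 2 alone. Relative to control basal, on the scale given above, the list averaged 2.83, 2.26 and 1.23 in cKO EAE 1, 2 and 3. In controls it averaged 2.49 to 2.61, so that only cKO EAE 1 lay above them. None of 12 was called with 6 libraries (1 lower at an unadjusted p below 0.05, 1 by DESeq2, 2 by voom). With 5 libraries 2 were called lower, the collagenase Mmp8 (-1.46, SE 0.32) and the growth factor receptor Csf3r (-1.04, SE 0.30). Proliferation genes had a median of -1.46 (-0.98), with 10 of 14 called with 5 libraries and none with 6 (7 at an unadjusted p below 0.05, 7 by DESeq2, 9 by voom), such as the centromere histone Cenpa at 12.6 to 15.3 and 1.08 to 8.41 CPM.

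The interferon gamma response separated the groups in every gene. All 19 tested with 6 libraries lay lower in every cKO library than in every control (24.5% of all genes did). None was called with 6 (9 at an unadjusted p below 0.05, 3 by DESeq2, 7 by voom), and the median was -2.21. With 5 libraries 20 were tested and 20 called lower (9.1% of all genes were), with a median of -1.66. The library cKO EAE 2 alone had a median of -1.53. The GTPase Tgtp1 was at 73.2, 26.5 and 33.9 CPM in control EAE 1, 2 and 3 and at 5.96, 10.1 and 0.253 in cKO EAE 1, 2 and 3 (-2.47, SE 0.46, adjusted p = 0.0166 with 5 libraries). Its near-identical neighbour Tgtp2 may share its reads. Socs1, which dampens cytokine receptors, was at 25.0, 15 and 23.1 and at 8.21, 7.98 and 1.14 CPM (-1.38, SE 0.23), and Gbp4, a GTPase that overlaps Gbp9, at 94.2 to 246 and 6.13 to 50.3 (-1.73, SE 0.37). Irf1, the transcription factor induced first by interferon gamma, was at 190, 97.8 and 113 and at 56.1, 55.3 and 6.32 CPM (-1.26, SE 0.26, adjusted p = 0.0197 with 5 libraries). The type I interferon list had a median of -1.25 (-0.72), with 10 of 20 called with 5 libraries and 0 with 6 (0 at an unadjusted p below 0.05, 0 by DESeq2, 1 by voom), such as the RNA sensor Oas3 at 28.7, 17.5 and 31.9 and at 6.63, 11.5 and 0.126 CPM.

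Interferons act through short promoter sequences, and those of 4 genes named above are shown because they carry the known motifs. Factors activated by interferon gamma bind the GAS motif TTCNNNGAA, and those activated by type I interferon bind the ISRE motif, GAAA followed by any 2 bases and GAAA again. The lines give the 120 bases upstream of each gene's start from RefSeq (build GRCm38.p6), with GAS or ISRE matches in capitals. They lie at chr11:48992247-48992366 (Tgtp1, minus strand, a GAS and an ISRE), chr16:10785537-10785656 (Socs1, minus strand, ISRE matches that overlap), chr5:120777660-120777779 (Oas3, minus strand, an ISRE) and chr11:53769894-53770013 (Irf1, plus strand, a GAS).
Tgtp1: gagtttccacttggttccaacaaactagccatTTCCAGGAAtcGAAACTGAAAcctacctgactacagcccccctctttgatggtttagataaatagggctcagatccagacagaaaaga
Socs1: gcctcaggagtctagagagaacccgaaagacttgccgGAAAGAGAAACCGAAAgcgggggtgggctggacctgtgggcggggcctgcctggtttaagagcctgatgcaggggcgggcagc
Oas3: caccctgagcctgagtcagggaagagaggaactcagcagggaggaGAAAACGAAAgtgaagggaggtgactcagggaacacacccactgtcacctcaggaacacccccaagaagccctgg
Irf1: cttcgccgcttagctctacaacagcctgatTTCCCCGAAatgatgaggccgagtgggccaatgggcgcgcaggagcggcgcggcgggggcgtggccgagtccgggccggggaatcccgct
Searched on both strands from 250 bases before to 50 after each start, GAS was found in 9.55% and ISRE in 3.99% of 27025 genes. Of the interferon gamma list 12 of 20 genes had an entry, 7 with GAS and 10 with ISRE. Of the type I list 14 had an entry, 3 with GAS and 10 with ISRE, and of 9 motor neuron genes with an entry none held either. The list members were chosen for their known interferon response, and a match is a description of letters.

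Antigen presentation, which interferon gamma drives, was called lower without cKO EAE 3. All 15 genes of MHC class I and peptide loading were below every control in every cKO library (24.5% of all genes were). With 5 libraries 15 were called lower (9.1% of all genes were) and none with 6 (7 at an unadjusted p below 0.05, 4 by DESeq2, 10 by voom), median -1.72 (-1.18). Tap2, a peptide transporter, was at 108, 64.4 and 88.7 and at 36.8, 43.2 and 12.6 CPM (-1.12, SE 0.21, adjusted p = 0.0164 with 5 libraries), and Tapbp, its loading partner, at 293 to 448 and 42.6 to 171 (-1.16, SE 0.19). Of 10 MHC class II genes 7 were called lower with 5 libraries and none with 6 (3 at an unadjusted p below 0.05, 1 by DESeq2, 3 by voom), median -2.12 (-1.57). Ciita, their master activator, was at 86.4, 36.6 and 34.4 CPM in controls and 12.9, 16.9 and 2.72 in cKO (-1.82, SE 0.41, adjusted p = 0.0235 with 5 libraries). The controls ranged widely in class II, with control EAE 1 at 5630 CPM in sum and the others at 1863 and 2355, against 772 and 1128 in cKO EAE 1 and 2 and 29.7 in cKO EAE 3.

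Cytokine and chemokine genes were called lower in both fits or with 5 libraries. Of 15 tested inflammatory cytokines 2 were called lower with 6 libraries, Lta and Il12a, and 9 with 5, median -1.95 (-1.43). Tnf was at 17.6, 12.4 and 10.4 CPM in controls and 3.04, 4.91 and 0 in cKO (-2.34, SE 0.93, adjusted p = 0.126, and -1.76, SE 0.30, adjusted p = 0.0151 with 5 libraries). Il6 overlapped, at 0.818, 1.92 and 6.39 and at 0.669, 0.983 and 0 CPM, with adjusted p of 0.144 and 0.153. Tgfb1, a cytokine with anti-inflammatory roles, was at 69.7 to 92.8 and 7.84 to 46.1 CPM (-1.17, SE 0.23, called with 5 libraries). Of 22 chemokines 9 were called lower with 5 libraries and none with 6 (5 at an unadjusted p below 0.05, 3 by DESeq2, 4 by voom), median -1.64 (-1.08). Ccl2, which draws monocytes, was at 43.6, 32.3 and 50.5 and at 13.9, 21.4 and 0.379 CPM (-1.25, SE 0.23, adjusted p = 0.0165 with 5 libraries).

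Genes of NF-kB, the transcription factor downstream of TNF, were called lower in 14 of 16 cases with 5 libraries (9.1% of all genes were). All but 1 of 16 had every cKO library below every control (24.5% of all genes did). None was called with 6 libraries (14 at an unadjusted p below 0.05, 9 by DESeq2, 14 by voom), median -1.17 (-0.84). Tnfaip3, the feedback inhibitor A20, was at 67.7, 48.1 and 49.3 and at 18.1, 22.7 and 5.76 CPM (-1.43, SE 0.18, adjusted p = 0.0150 with 5 libraries), and the adhesion molecule Vcam1 at 103 to 145 and 34.2 to 72.0 (-0.85, SE 0.15). Complement genes had a median of -1.52 (-1.08), with 9 of 15 called with 5 libraries and none with 6 (7 at an unadjusted p below 0.05, 4 by DESeq2, 11 by voom), among them the protease C1s1 at 59.6, 41.0 and 32.1 and at 14.6, 15.1 and 3.10 CPM. Of 7 tested acute phase and iron genes 6 were called with 5 libraries and none with 6 (6 at an unadjusted p below 0.05, 3 by DESeq2, 5 by voom), median -2.47 (-1.60). Hmox1, which breaks down heme, was at 101, 115 and 165 and at 22.3, 41.6 and 4.62 CPM (-1.99, SE 0.30, adjusted p = 0.0150 with 5 libraries).

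Prostaglandin genes went in both directions. Ptgds, whose product prostaglandin D synthase is made in meninges and oligodendrocytes, was at 131, 103 and 58.8 CPM in controls and 423, 211 and 363 in cKO (1.77, SE 0.36, adjusted p = 0.0454 by edgeR), without overlap. The prostaglandin E synthase Ptges was at 12.4 to 16.5 and 4.49 to 8.29 CPM (-1.19, SE 0.25, adjusted p = 0.0463), and its receptor gene Ptger2 was lower as given above. The receptor Ptger3 was at 1.32 to 2.22 and 2.33 to 3.67 CPM and was not called (0.67, SE 0.29, adjusted p = 0.154). Heat shock genes were higher for 2 of 10 in both fits, Hsph1 (0.79, SE 0.15) and Hsp90aa1 (0.76, SE 0.17), while Cryab, the small heat shock protein of oligodendrocytes and astrocytes, overlapped at 120 to 151 and 92.5 to 137 CPM (-0.35, SE 0.15, adjusted p = 0.146).

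Vessel genes differed by list. Of 15 endothelial and barrier genes none was called with 6 libraries (4 higher and 1 lower at an unadjusted p below 0.05, 3 and 1 by DESeq2, 4 and 1 by voom) and 1 lower with 5 (9.1% of all genes were), the tight junction gene Cldn5, at 59.2 to 69.9 and 39.0 to 51.2 CPM (-0.45, SE 0.12, adjusted p = 0.0344). The median of that list was -0.15 (0.01). Of 6 genes of activated endothelium 2 were called lower with 5 libraries, the adhesion molecules Vcam1 and Icam1, and none with 6 (2 at an unadjusted p below 0.05, 1 by DESeq2, 2 by voom), median -1.32 (-0.97). Of 11 pericyte and smooth muscle genes 2 were called higher and 1 lower with 5 libraries (9.11% and 9.1% of all genes were). None was called with 6 (3 higher and 1 lower at an unadjusted p below 0.05, the same by DESeq2 and by voom), median 0.08 (0.19). The pericyte gene Rgs5 was at 117 to 144 and 154 to 175 CPM and was not called (0.34, SE 0.11, adjusted p = 0.0842).

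**Figure D5:**
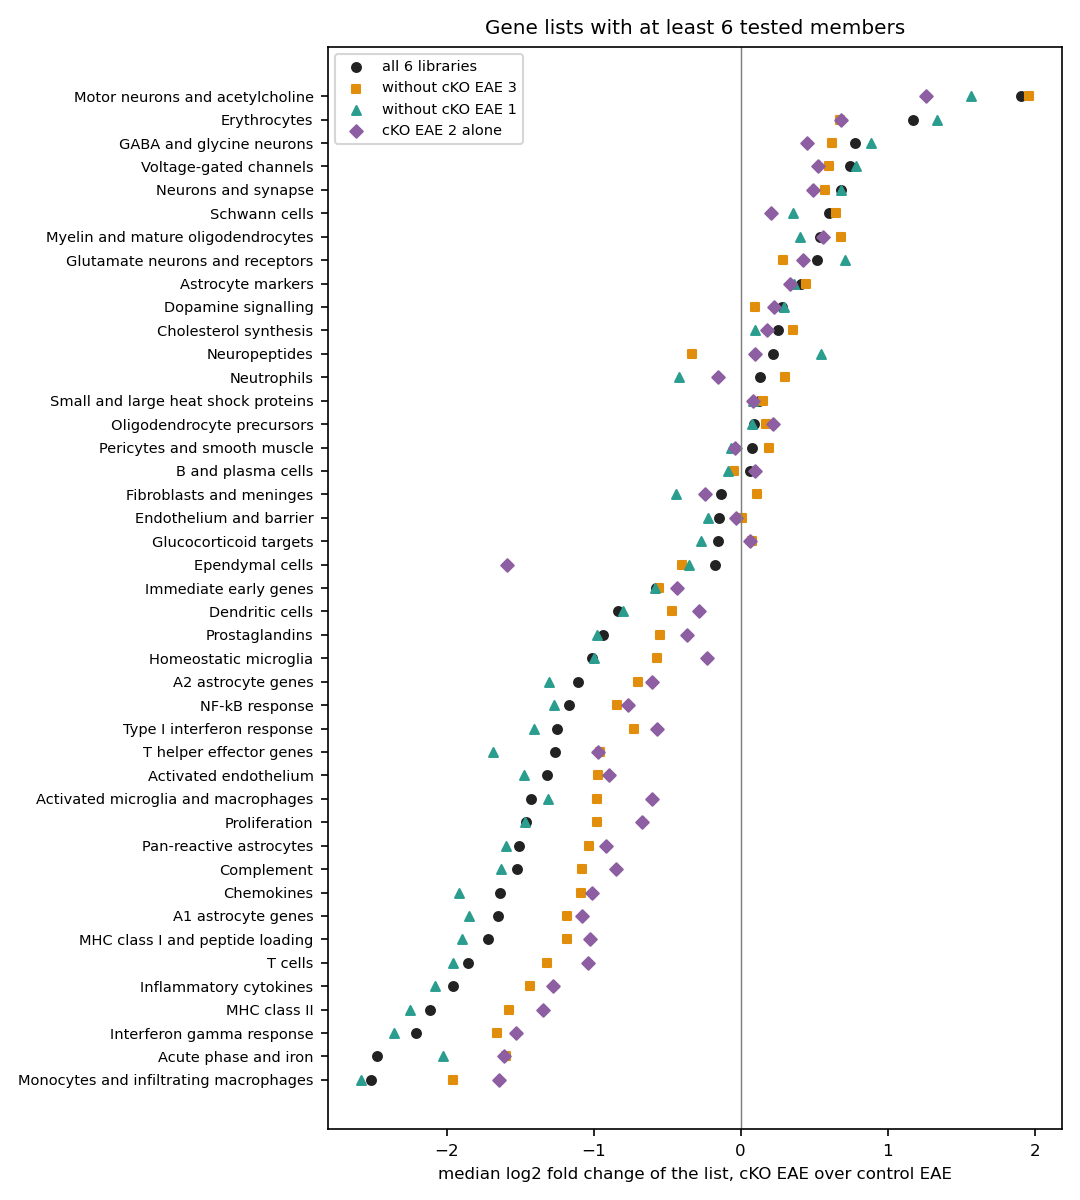
Median log2 fold change, cKO over control, of each gene list with at least 6 tested members, in 4 settings: all 6 libraries (black), without cKO EAE 3 (orange), without cKO EAE 1 (green) and cKO EAE 2 alone against the 3 controls (purple). Motor neurons lie at 1.91, 1.96, 1.56 and 1.26, and monocytes at -2.52, -1.95, -2.58 and -1.64. The lists that cross 0 between settings are neuropeptides, neutrophils, B and plasma cells, glucocorticoid targets, endothelium and barrier, pericytes and fibroblasts.

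By the naming rule the fit without cKO EAE 3 added further genes. Among the 10 largest rises were Ogn, a small proteoglycan of connective tissue, at 1.23, 1.26 and 1.72 CPM in controls and 31.3, 2.09 and 14.5 in cKO (3.57, SE 0.89, adjusted p = 0.0309), and the spectrin Sptbn5, at 2.19 to 2.86 and at 19.8, 3.19 and 11.1 (2.18, SE 0.62, adjusted p = 0.0444). Both were high in cKO EAE 1 and 3 and near control in cKO EAE 2, the order of the Schwann cell gene Prx (1.80 to 2.54 and 46.4, 2.27 and 23 CPM). Whether they share a source was not tested. The 10 largest falls were Asb11, Bdkrb1, Ms4a7, Saa3, Tgtp1, Chil3, F13a1, Tm4sf19, Atp6v0d2 and Gbp10. Atp6v0d2, a proton pump subunit of osteoclasts and macrophages, was at 8.41, 9.50 and 7.81 and at 0.973, 2.27 and 0 CPM (-2.40, SE 0.33, adjusted p = 0.0150), and F13a1, the coagulation factor chain of macrophages, at 150, 75.6 and 43.5 and at 16.9, 16.3 and 3.35 (-2.43, SE 0.47, adjusted p = 0.0175). In Atp6v0d2 the controls were nearly equal, while in F13a1 and Saa3 (145, 80.5 and 37.3 CPM) control EAE 1 was the highest.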

How the data were processed

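The authors deposited a table of read counts per gene, whole numbers without normalization. The submitters' processing notes name HISAT2 2.0.5, featureCounts 1.5.0-p3 and the build mm10. The strand setting and the treatment of multi-mapping reads are not stated there. The 3 cKO EAE and 3 control EAE libraries were fitted with edgeR 4.0.16 (limma 3.58.1, R 4.3.3): filterByExpr, TMM factors, the quasi-likelihood F test without covariate, and Benjamini-Hochberg adjustment over all genes tested, called below 0.05. The fit was repeated without cKO EAE 3. Levels are TMM-normalised CPM unless CPM of the library total is named. DESeq2 1.42.0 and limma voom were among the alternatives. The fits were tested on simulated data. Library totals of 15781928 to 17192851 make 1 count worth under 0.1 CPM, so low genes carry counting error.

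The 45 lists and the rules were chosen with earlier results of these data known. Named were Drd2, the 12 largest rises and falls with 6 libraries and 10 with 5 (called, at least 1 CPM on average in a group, groups not overlapping, no predicted genes), up to 4 members of each list by p, and always Gfap, Tnf, Il6, Ccl2, Rgs5 and Cryab. Isl1, Ache, Ret, Prph, Slc1a2, Slc1a3, Irf1 and the dorsal horn and Hox genes were chosen after their values were seen. No pairing was used. Some genes are not reported here.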

Additional observations from a re-analysis of the deposited data

How the results depend on the processing

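The number of genes called depended on the fit. With 6 libraries edgeR's quasi-likelihood test called 1374 genes, against 5301 by DESeq2's Wald test and 5790 by limma voom with sample weights. It called 0 with all 12 libraries in 1 fit (2622 at an unadjusted p below 0.05) and 0 when tested against a fold change of 1.5 (1563). Leaving out each library in turn gave 0 to 3418 genes: 3418 without cKO EAE 2, 3336 without cKO EAE 3, and 0 without cKO EAE 1 (4991 at an unadjusted p below 0.05) or without control EAE 1, 2 or 3 (4201, 4933 and 4623). With 5 libraries the count of 3336 became 0 against a fold change of 1.5 (1735 at an unadjusted p below 0.05), and leaving out a further library gave 22 to 4022 genes: 22 without cKO EAE 1, 4022 without cKO EAE 2, and 1291, 1750 and 546 without control EAE 1, 2 and 3. Fits with a lone cKO library assume that it varies like the controls. The cause of these differences was not tested.

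With the replicate block 0 genes were called with 6 libraries (5344 at an unadjusted p below 0.05) and 1 with 5 (4314). Deviations from the group mean correlated at 0.143, -0.243 and 0.00886 between same-numbered libraries, and at -0.231 to 0.256 between differently numbered ones. With 3 libraries a group these values cannot decide whether the samples were paired.

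Of the genes tested singly, which were mostly chosen for separated groups or small p, 3 changed sign under an alternative. Drd2 (-0.083), Nts (-0.27) and Penk (-0.34) changed sign under voom with sample weights, and Penk ranged from -0.10 without cKO EAE 3 to 0.57 without cKO EAE 1.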

Other observations

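Some groups outside the comparisons above moved with single libraries. Hemoglobin and other red cell genes had a median of 1.17 over 6 tested genes with 6 libraries and 0.68 without cKO EAE 3. By edgeR Hbb-bt was called higher with 6 libraries and not with 5, and Hba-a1 was called higher with 5 and not with 6. The summed level of Hba-a1, Hbb-bs and Alas2 was 8.32, 10.5 and 17.0 CPM of the library total in controls and 17.1, 17.9 and 41.2 in cKO. The 6 ependymal genes had a median of -0.17 with 6 libraries, -0.40 with 5 and -1.59 in cKO EAE 2 alone. Glucocorticoid target genes had a median of -0.16 with 6 libraries and 0.08 with 5. None was called with 6 (1 higher and 1 lower at an unadjusted p below 0.05, the same by DESeq2, 2 higher by voom), and 2 of 11 were called higher with 5, among them Tsc22d3, the leucine zipper GILZ, at 83.5 to 112 and 125 to 181 CPM (0.69, SE 0.17, adjusted p = 0.0286 by edgeR's quasi-likelihood test). Fibroblast genes had a median of -0.13 that turned to 0.11 without cKO EAE 3. There 2 of 9 were called higher and 1 lower (9.11% and 9.1% of all genes were). The sum of Col1a1, Dcn and Lum was 159 to 166 CPM of the library total in controls and 190, 116 and 49.6 in cKO EAE 1, 2 and 3.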
